A study of Mus musculus with 3 samples.

Results

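The complement components and inhibitors described here are 6 genes, C3, C4b, Cfb, Serping1, Cd55 and Cd59a, chosen with earlier results of these arrays known, and they were read through every probe set that the platform table lists to exactly 1 of them. For 5 of the 6 genes there were such probe sets, 8 in all out of 45141 on the array, and these 5 stand among 17097 genes named in the same way. C3, the central component of the cascade, had no probe set listed to it alone and was not analysed here. The values themselves entered the choice of the genes, so their levels and differences are a description, with no test.

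The arrays hold RNA from cultured mouse mesenchymal progenitors of bone marrow, named PaS+ in the labels, taken from animals aged 8 weeks of the strain written C56Bl/6. The cells were sorted by FACS, kept for 7 days at 1% oxygen and transduced overnight with lentiviral vectors, and RNA was taken 4 days after transduction. The first array had cells given an shRNA against HIF-1α, the next had cells given an shRNA against HIF-2α, and the control array had cells given a control shRNA, each with lentivirus and low oxygen in common. The labels give no hairpin sequence and no number of animals, and each group is 1 array, so the spread between cultures is unknown.

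Complement is a cascade of plasma proteases and surface inhibitors that marks cells for clearance and punches pores in membranes. The classical and lectin routes cleave C4 and C2, the alternative route uses factor B, and all of them meet at C3, while inhibitors such as C1 inhibitor, CD55 and CD59 hold the cascade in check on host cells. The liver is the main source of the plasma proteins, and fibroblasts and other stromal cells are known to make several of them locally.

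Hif1a and Epas1, which encode the targeted proteins, were read first. The brightest Hif1a probe set (Entrez gene 15251) read 332.4 on both the shHIF-1a-labelled array and the shHIF-2a-labelled array, against 352.1 on the control array, so it did not separate the hairpins. The brightest Epas1 probe set (Entrez gene 13819) read 9.44 on the shHIF-1a-labelled array and 3.21 on the shHIF-2a-labelled array, against 5.09 on the control array. The value of 3.21 lies under the nonspecific level of 3.47 defined below, and the control value is only 1.47-fold over that level. The other listed probe set of Hif1a and that of Epas1 were under the level on every array. Whether Epas1 was lowered was not tested. The shRNA arrays are therefore named by their labels, shHIF-1a and shHIF-2a, and each direction below rests on them.

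Intensities are RMA values on a linear scale, and signal over background takes the place of depth. The highest of 23 nonspecific probe sets read 2.29 on the shHIF-1a-labelled array, 3.29 on the shHIF-2a-labelled array and 3.47 on the control array. The last of these, 3.47, was taken as the nonspecific level for every array, values under it were raised to it before a fold was formed, and such a fold is a lower bound. Upper quartiles were 13.0 and 13.9 on the shRNA arrays, against 9.81 on the control array. Of 10 mesenchymal progenitor markers 9 were listed, and all 9 were above the nonspecific level on every array, with a summed intensity of 1294.6 on the shHIF-1a-labelled and 1075.4 on the shHIF-2a-labelled array, against 1254.3 on control. Within the list the growth factor receptor gene Pdgfra read 51.6 on the shHIF-1a-labelled and 47.9 on the shHIF-2a-labelled array, against 38.2 on control. Cd44, the brightest of the list, read 538.9 on the shHIF-1a-labelled and 576.5 on the shHIF-2a-labelled array, against 500.5 on control. The dim Lepr was also highest on the shHIF-2a-labelled array, at 5.34, against 3.86 on the shHIF-1a-labelled array and 4.47 on control. Others were lowest with the shHIF-2a hairpin, among them the chemokine gene Cxcl12 at 177.9 on the shHIF-1a-labelled and 72.3 on the shHIF-2a-labelled array, against 249.96 on control, and Nt5e (CD73) at 457.6 on the shHIF-1a-labelled and 323.7 on the shHIF-2a-labelled array, against 407.1 on control. Ly6a (Sca-1) had no probe set of its own in the platform table.

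Promoter sequence is shown for the membrane inhibitors Cd55 and Cd59a, whose brightest probe sets both read higher than control with either hairpin. RefSeq windows of assembly GRCm38.p6 were at hand for these genes and not for C4b, Cfb and Serping1. Each is the 250 bases before the annotated start, written 5′ to 3′ in the direction of the gene, and capitals mark matches to the motifs searched. The Cd55 window lies at chr1:130462745-130462994 on the minus strand and the Cd59a window at chr2:104095551-104095800 on the plus strand.
Cd55: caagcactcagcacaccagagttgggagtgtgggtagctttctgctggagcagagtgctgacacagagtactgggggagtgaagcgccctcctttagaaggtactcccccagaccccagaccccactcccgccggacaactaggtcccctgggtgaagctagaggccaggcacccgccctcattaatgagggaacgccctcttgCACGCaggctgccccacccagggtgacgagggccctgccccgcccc
Cd59a: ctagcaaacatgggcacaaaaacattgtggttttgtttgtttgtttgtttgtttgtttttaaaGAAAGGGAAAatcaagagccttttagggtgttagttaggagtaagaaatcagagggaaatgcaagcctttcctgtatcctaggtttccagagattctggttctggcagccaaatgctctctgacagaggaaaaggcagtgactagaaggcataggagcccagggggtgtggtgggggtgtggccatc
The Cd59a window held 1 match to the interferon-stimulated response element core (GAAA, any 2 bases and GAAA, on either strand), a motif found in 2.98% of the 32851 windows of the same length in the mouse table, some genes having several. The Cd55 window held 1 match to the hypoxia response element core (ACGTG or GCGTG on either strand), found in 38.6% of those windows. Neither window held the GAS motif (TTCNNNGAA), present in 7.02% of windows, the NF-κB motif (GGGA, any 2 bases and TTCC), in 1.21%, or the C/EBP motif TTGCNNAA, in 9.56%. The Cd55 window was 64% G and C, and the Cd59a window 44.8%. Such matches are letters in a window and do not show that a factor bound there.

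C4b (Entrez gene 12268, chromosome 17) encodes complement C4, which C1s cleaves in the classical route to start the assembly of a C3 convertase. Its only probe set read 57.1 on the shHIF-1a-labelled array and 16.7 on the shHIF-2a-labelled array, against 71.0 on the control array. The shHIF-2a-labelled array stood far below the other two, although still 4.82-fold over the nonspecific level, and the shHIF-1a-labelled array lay a little under control. The log2 difference from control was −0.31 on the shHIF-1a-labelled array and −2.09 on the shHIF-2a-labelled array, where the signal was 23.5% of control. Mouse C4b has a closely related neighbour, C4a, and a probe set for the one may pick up the other.

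Serping1 (Entrez gene 12258, chromosome 2) encodes C1 inhibitor, the serpin that inactivates C1r, C1s and the MASP proteases and also restrains plasma kallikrein. It read 125.6 on the shHIF-1a-labelled array and 33.7 on the shHIF-2a-labelled array, against 162.5 on the control array. The order of the arrays was the same as for C4b, with the shHIF-2a-labelled array lowest. The log2 difference from control was −0.37 on the shHIF-1a-labelled array, which is 77.3% of control, and −2.27 on the shHIF-2a-labelled array, which is 20.7% of control. Between the hairpins Serping1 differed by −1.90 and C4b by −1.77 on the log2 scale (shHIF-2a-labelled minus shHIF-1a-labelled). A protease substrate of the classical route and the inhibitor of the proteases that cut it were thus both dimmer on the shHIF-2a-labelled array.

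Cfb (Entrez gene 14962, chromosome 17) encodes factor B, the protease precursor of the alternative C3 convertase. It read 89.6 on the shHIF-1a-labelled array and 50.3 on the shHIF-2a-labelled array, against 40.7 on the control array. Here the shHIF-1a-labelled array was the highest, at 2.20-fold over control, and the shHIF-2a-labelled array was 1.24-fold over control. The log2 difference between the hairpins was −0.83 (shHIF-2a-labelled minus shHIF-1a-labelled). In the RefSeq table Cfb and C4b lie on the same stretch of chromosome 17, the class III part of the mouse MHC, with 5 protein-coding genes between them. On the shHIF-2a-labelled array these neighbours stood on opposite sides of control, C4b below and Cfb slightly above. C2, the classical-route relative of factor B and the next protein-coding gene to Cfb, was under the nonspecific level on all 3 arrays, at 2.51 on the shHIF-1a-labelled, 2.35 on the shHIF-2a-labelled and 1.48 on the control array.

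**Figure D1:**
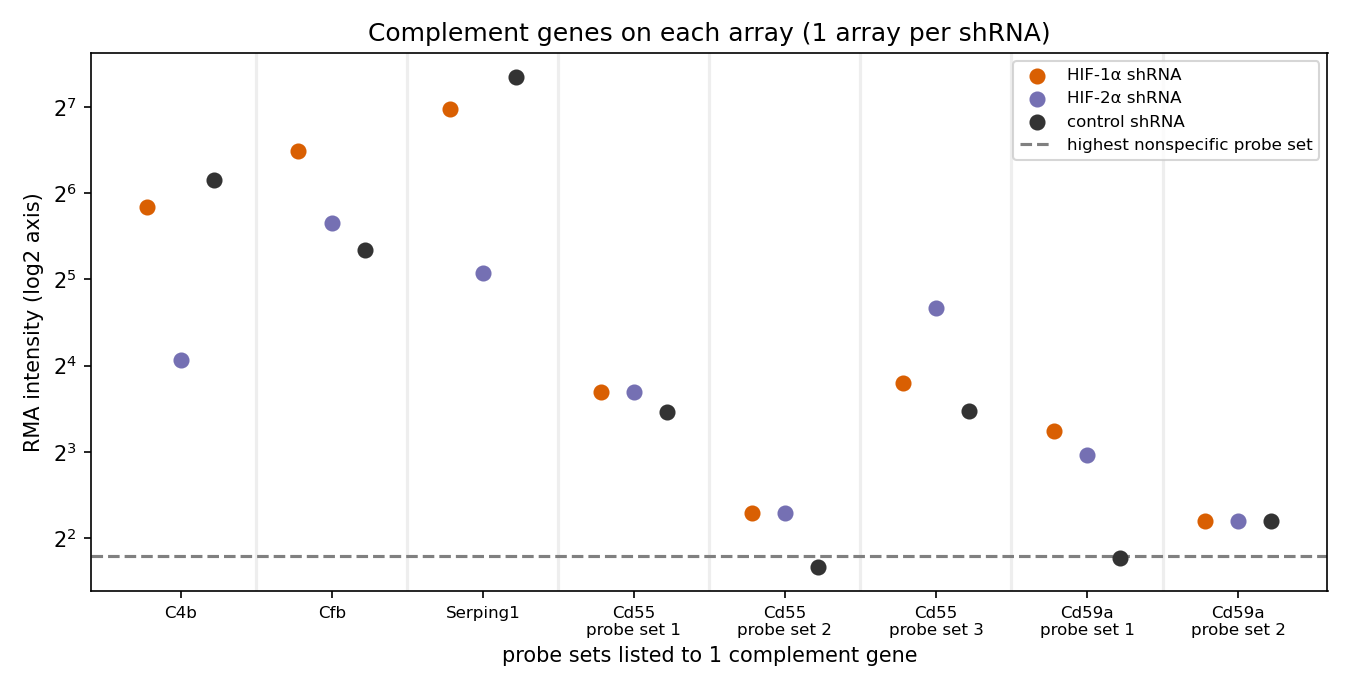
RMA intensity (log2 axis) of the 8 probe sets of 5 complement genes, 1 point per array in the order HIF-1α shRNA, HIF-2α shRNA and control shRNA, with the nonspecific level of 3.47 dashed. C4b and Serping1 are lowest on the shHIF-2a-labelled array, at 16.7 and 33.7, and Cfb is highest on the shHIF-1a-labelled array, at 89.6.

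Cd55 (Entrez gene 13136, chromosome 1) encodes decay-accelerating factor, a lipid-anchored surface protein that takes C3 convertases apart. Its brightest probe set, 1460242_PM_at, read 13.9 on the shHIF-1a-labelled array and 25.3 on the shHIF-2a-labelled array, against 11.1 on the control array. The log2 difference from control was 0.32 with the shHIF-1a hairpin and 1.19 with the shHIF-2a hairpin, so the shHIF-2a-labelled array stood apart from the others. The second probe set, 1418762_PM_at, read 12.9 on each shRNA array and 11.0 on the control array, which is a log2 difference of 0.23 with either hairpin. The third, 1443906_PM_at, read 4.88 on each shRNA array and 3.17 on the control array, at least 1.41-fold higher. All 3 probe sets therefore read above control on both shRNA arrays. Only the brightest of them separated the hairpins, and the others gave exactly equal values for both. Equal values recur in the deposited data even between genes, 9.4363 being the shHIF-1a-labelled value of both Epas1 and Cd59a. An exact tie is therefore not read as equal RNA. The mean of the 3 probe sets gave a log2 difference from control of 0.64 on the shHIF-2a-labelled array, under 2-fold.

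Cd59a (Entrez gene 12509, chromosome 2) encodes CD59, a lipid-anchored protein that blocks the last step of pore formation by binding C8 and C9. Its brightest probe set, 1418710_PM_at, read 9.44 on the shHIF-1a-labelled array and 7.81 on the shHIF-2a-labelled array, against 3.42 on the control array, just under the nonspecific level. It was at least 2.72-fold higher on the shHIF-1a-labelled array and at least 2.25-fold higher on the shHIF-2a-labelled array than in control. The other probe set, 1429830_PM_a_at, read 4.57 on every array. The probe sets of this gene thus disagreed, both lay within 3-fold of background, and their mean gave log2 differences from control of 0.72 with the shHIF-1a hairpin and 0.58 with the shHIF-2a hairpin. Of the 24 values of the 8 probe sets, the 2 under the nonspecific level were control values, 3.42 for Cd59a and 3.17 for Cd55, and the nearest above it was 4.57.

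Counted by gene, 2 of the 5 genes were at least 2-fold higher on the shHIF-1a-labelled array than in control, Cfb and Cd59a, and none was 2-fold lower. Among 8917 genes above the nonspecific level on at least 1 array, 4.03% were 2-fold higher and 0.0561% 2-fold lower in that comparison. On the shHIF-2a-labelled array 2 of the 5 were at least 2-fold higher than control, Cd55 and Cd59a, and 2 were at least 2-fold lower, C4b and Serping1, where 7.59% of all genes were 2-fold higher and 0.516% 2-fold lower. Between the hairpins 2 of the 5, C4b and Serping1, were at least 2-fold lower on the shHIF-2a-labelled array, where 0.83% of all genes were, and none was 2-fold higher, where 1.18% were. Since Cd59a passed the nonspecific level on its brightest probe set through the shRNA arrays alone, it could only be higher there, and since the genes were chosen on these differences nothing is read from the counts.

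The median log2 difference of the 5 genes from control was 0.32 on the shHIF-1a-labelled array and 0.30 on the shHIF-2a-labelled array, beside 0.10 over all 8917 genes on the first of these arrays and 0.14 on the second. With the shHIF-2a hairpin this median covers genes that lay far apart, from −2.27 for Serping1 to 1.19 for Cd55. Cyclic loess scaling moved the all-gene median on the shHIF-2a-labelled array to 0.03 and left Cd55 at 0.98 and Cd59a at 0.95, both under 2-fold, whereas C4b stood at −2.23 and Serping1 at −2.36. With 32 added before log2, which shrinks the folds of dim genes, C4b stood at −1.08 and Serping1 at −1.57 on that array, but the difference of C4b between the hairpins (−0.87), that of Cfb on the shHIF-1a-labelled array (0.74), and those of Cd55 (0.41) and Cd59a (0.17) on the shHIF-2a-labelled array were under 2-fold, as was Cd59a on the shHIF-1a-labelled array (0.22).

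C4b, Cfb and Serping1 reached 64 on at least 1 array, as did 2738 genes in all. Of these 3 genes 1 was 2-fold apart from control with the shHIF-1a hairpin, where 1.06% of the 2738 genes were. With the shHIF-2a hairpin 2 were, beside 2.52% of the 2738 genes, and between the hairpins 2 were, beside 1.68%. Cfb reached 64 on the shHIF-1a-labelled array alone and C4b on the control array alone, each through the array where it was highest, so these counts and the ranks that follow are partly set by the minimum. Serping1 was the gene with rank 2 from the lowest of those 2738 differences between the shHIF-2a-labelled and control arrays, and C4b had rank 4. On the shHIF-1a-labelled array the rank from the lowest was 18 for Serping1 and 31 for C4b. Cfb had rank 28 from the highest on the shHIF-1a-labelled array and rank 419 on the shHIF-2a-labelled array. For scale, different probe sets of the same gene at this brightness disagreed by a pooled SD of 0.12 in the first comparison and 0.21 in the second (log2, 649 genes), which is a spread within a pair of arrays and not between cultures.

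**Figure D2:**
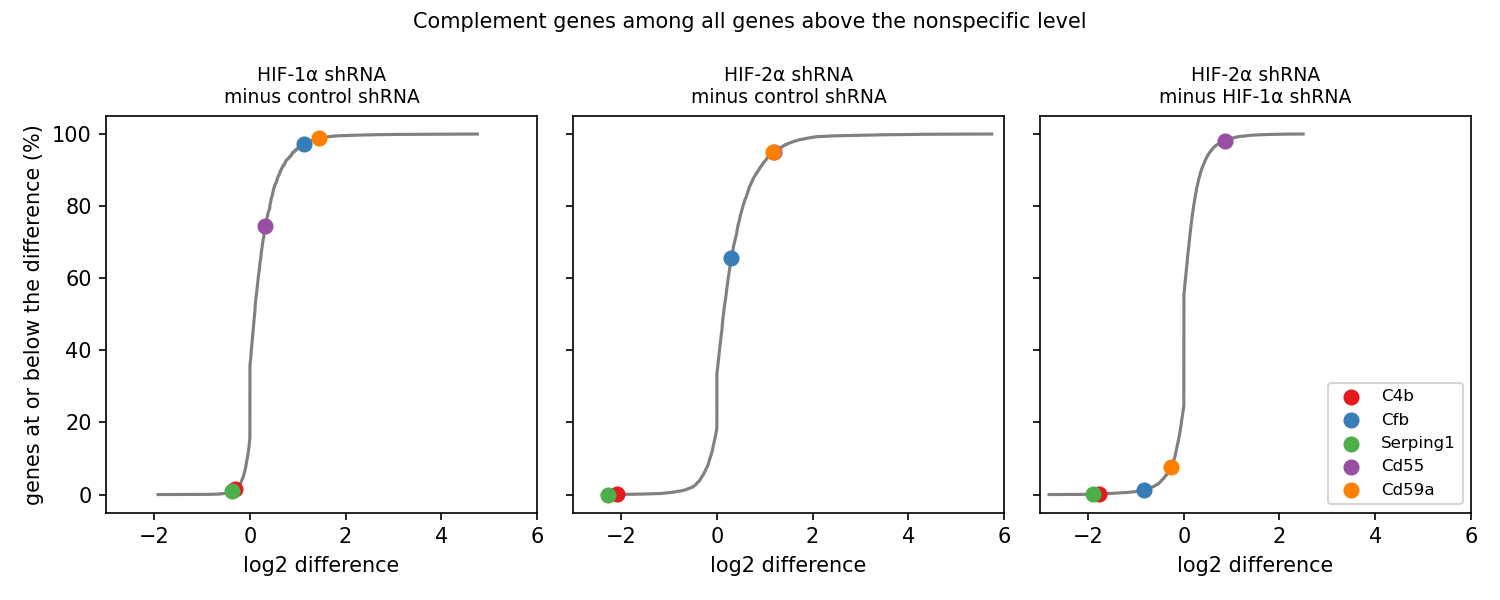
Percentage of the 8917 genes above the nonspecific level (vertical axis) at or below each log2 difference (horizontal axis), with 5 complement genes marked on the curve, in 3 comparisons. C4b (−2.09) and Serping1 (−2.27) sit at the low end for the shHIF-2a-labelled array against control, where the points of Cd55 (1.19) and Cd59a (1.17) overlap near the top.

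Some measures moved with C4b and Serping1 on the shHIF-2a-labelled array. The 12 bright hybridisation control probe sets, bacterial and phage sequences added to the sample, had a median log2 difference from control of 0.08 on the shHIF-1a-labelled array and −1.02 on the shHIF-2a-labelled array (range −1.39 to −0.50). The 11 poly-A control probe sets above the nonspecific level were dim, with medians of 9.26 on the shHIF-1a-labelled, 8.60 on the shHIF-2a-labelled and 8.90 on the control array, and their log2 differences from control ran from −0.41 to 0.79 with the shHIF-1a hairpin and from −0.41 to 0.77 with the shHIF-2a hairpin. The 5′ probe set of actin read 656.0 on the shHIF-1a-labelled and 657.7 on the shHIF-2a-labelled array, against 723.3 on control, and its 3′ probe set read 999.8 on every array. The part of the hybridisation controls in the result was not tested.

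Of 3 listed fat cell markers 2, Fabp4 and Lpl, were also lower than control on that array. The list named 5 genes, and the summed intensity of the 3 listed was 627.9 on the shHIF-1a-labelled and 220.6 on the shHIF-2a-labelled array, against 449.9 on control. Fabp4, a fatty acid carrier, made up most of it, at 394.0 on the shHIF-1a-labelled, 163.9 on the shHIF-2a-labelled and 298.1 on the control array. Lpl, the lipoprotein lipase, read 223.9 on the shHIF-1a-labelled and 53.2 on the shHIF-2a-labelled array, against 148.7 on control. Adipoq, which defines mature fat cells, was not lower than control with either hairpin and was dim, at 10.003 on the shHIF-1a-labelled and 3.50 on the shHIF-2a-labelled array, against 3.004 on control, under the nonspecific level. Fewer cells of a type and less RNA per cell cannot be told apart in bulk RNA, and the part of these markers in the result was not tested.

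Summed markers of blood cells and endothelium differed little between the arrays, but Cd14 made up most of the blood sum. Of 11 macrophage and blood markers, Cd14 exceeded the nonspecific level throughout. It read 87.8 on the shHIF-1a-labelled, 93.2 on the shHIF-2a-labelled and 93.4 on the control array. Cd68 exceeded the level on the shHIF-2a-labelled array alone, at 7.24, against 3.02 on the shHIF-1a-labelled and 1.59 on the control array. The summed intensity of the 11 was 102.2 on the shHIF-1a-labelled and 112.8 on the shHIF-2a-labelled array, against 106.5 on control, and Ptprc, Adgre1, Csf1r and Itgam were under the nonspecific level on all 3. Of 6 endothelial markers only Egfl7 was above it, at 5.45 on each shRNA array and 4.64 on control, and the sum was 10.7 to 10.8 on every array.

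The rest of the complement system was then read from a list of 46 genes ordered by role. The platform table listed 39 of them, of which 8 were above the nonspecific level on at least 1 array and 31 were at or under it on all 3. The genes with signal were mostly proteases that start the cascade and inhibitors, and the listed genes of the pore gave none above the level. All 6 listed terminal genes (Hc, C6, C8a, C8b, C8g and C9) were under the level, as were the 3 C1q chains, properdin (Cfp), factor I (Cfi), C4bp, vitronectin (Vtn) and the anaphylatoxin receptor genes C3ar1 and C5ar1. The 7 genes that were not listed, among them Cfd, C7 and Cd59b, were not analysed here.

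**Figure D3:**
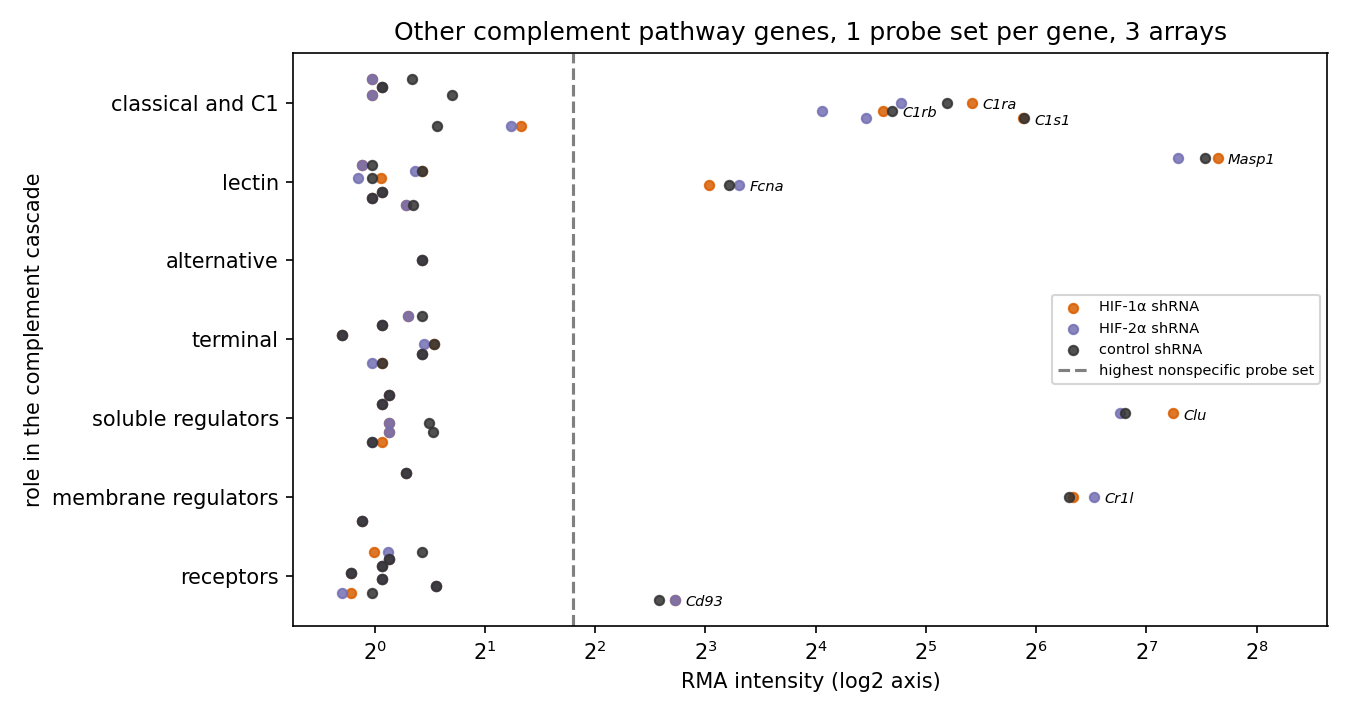
RMA intensity (log2 axis) of the 39 listed complement pathway genes by role, 1 row of points per gene and 1 point per array, with the nonspecific level of 3.47 dashed. The 8 genes right of the line are named, and points of equal value lie on top of each other.

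Proteases of the C1 complex followed C4b and Serping1 in direction on the shHIF-2a-labelled array. C1s1, the protease that cleaves C4, read 58.9 on the shHIF-1a-labelled array and 21.97 on the shHIF-2a-labelled array, against 59.5 on the control array. Its log2 difference from control was −0.01 with the shHIF-1a hairpin and −1.44 with the shHIF-2a hairpin. C1s1 was read from 1 probe set, 1424041_PM_s_at. The near neighbour C1s2 had no probe set listed to it alone, and whether it adds to the signal was not tested. C1ra, which activates C1s, read 42.7 on the shHIF-1a-labelled and 27.4 on the shHIF-2a-labelled array, against 36.5 on control, a log2 difference of −0.41 on the shHIF-2a-labelled array. C1rb, a close copy of C1ra on a probe set type that can cross-hybridise, read 24.4 on the shHIF-1a-labelled and 16.7 on the shHIF-2a-labelled array, against 25.8 on control, a difference of −0.63. All 3 protease genes lay below control with the shHIF-2a hairpin, 1 of them past 2-fold, and they are near neighbours on chromosome 6.

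Masp1, whose products are proteases of the lectin route, was bright and nearly level. Its brightest probe set read 200.5 on the shHIF-1a-labelled and 156.5 on the shHIF-2a-labelled array, against 185.2 on control, and the log2 differences were 0.11 with the shHIF-1a hairpin and −0.24 with the shHIF-2a hairpin. Fcna, a ficolin that recognises sugars, read 8.17 on the shHIF-1a-labelled and 9.90 on the shHIF-2a-labelled array, against 9.27 on control.

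Among inhibitors outside the member list, Clu (clusterin) binds the forming pore in fluid. Its brightest probe set read 151.3 on the shHIF-1a-labelled and 108.4 on the shHIF-2a-labelled array, against 111.8 on control. It differed from control by 0.44 with the shHIF-1a hairpin and by −0.04 with the shHIF-2a hairpin. With the shHIF-1a hairpin 1437458_PM_x_at differed by 0.46 and 1418626_PM_a_at by 0.51. With the shHIF-2a hairpin these other Clu probe sets differed by −0.26 and 0.05 in the same order. Cr1l (Crry), the rodent membrane inhibitor of C3 convertases, read 80.5 on the shHIF-1a-labelled and 91.9 on the shHIF-2a-labelled array, against 78.7 on control, with log2 differences of 0.03 with the shHIF-1a hairpin and 0.22 with the shHIF-2a hairpin. Cd55b, the neighbouring copy of Cd55, and Cd46 were under the nonspecific level on every array. Cd93, once described as a C1q receptor, read 6.62 on each shRNA array and 5.96 on control.

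Over the 8 genes 0 were 2-fold apart from control on the shHIF-1a-labelled array. In that comparison 4.03% of all 8917 genes were 2-fold higher and 0.0561% 2-fold lower. Of the 8 genes 5 were above 0 and 3 below, with a median of 0.07 (−0.04 after cyclic loess scaling), beside an all-gene median of 0.10. With the shHIF-2a hairpin 1 of the 8 was 2-fold lower and 0 were 2-fold higher. Of the 8 genes 3 were above 0 and 5 below, with a median of −0.14. This median was −0.21 after cyclic loess scaling and −0.33 at a minimum of 16. It was −0.12 with 32 added before log2, −0.11 with the mean of probe sets and −0.04 at a minimum of 64 (3 genes). Over all 8917 genes 0.516% were 2-fold lower and 7.59% 2-fold higher in that comparison, with a median of 0.14. Between the hairpins 5 of the 8 were lower on the shHIF-2a-labelled array, 2 higher and 1 equal, with a median of −0.42 beside 0.00 over all 8917 genes. C1s1 was the gene past 2-fold, at −1.42, where 0.83% of all genes were 2-fold lower and 1.18% 2-fold higher.

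**Figure D4:**
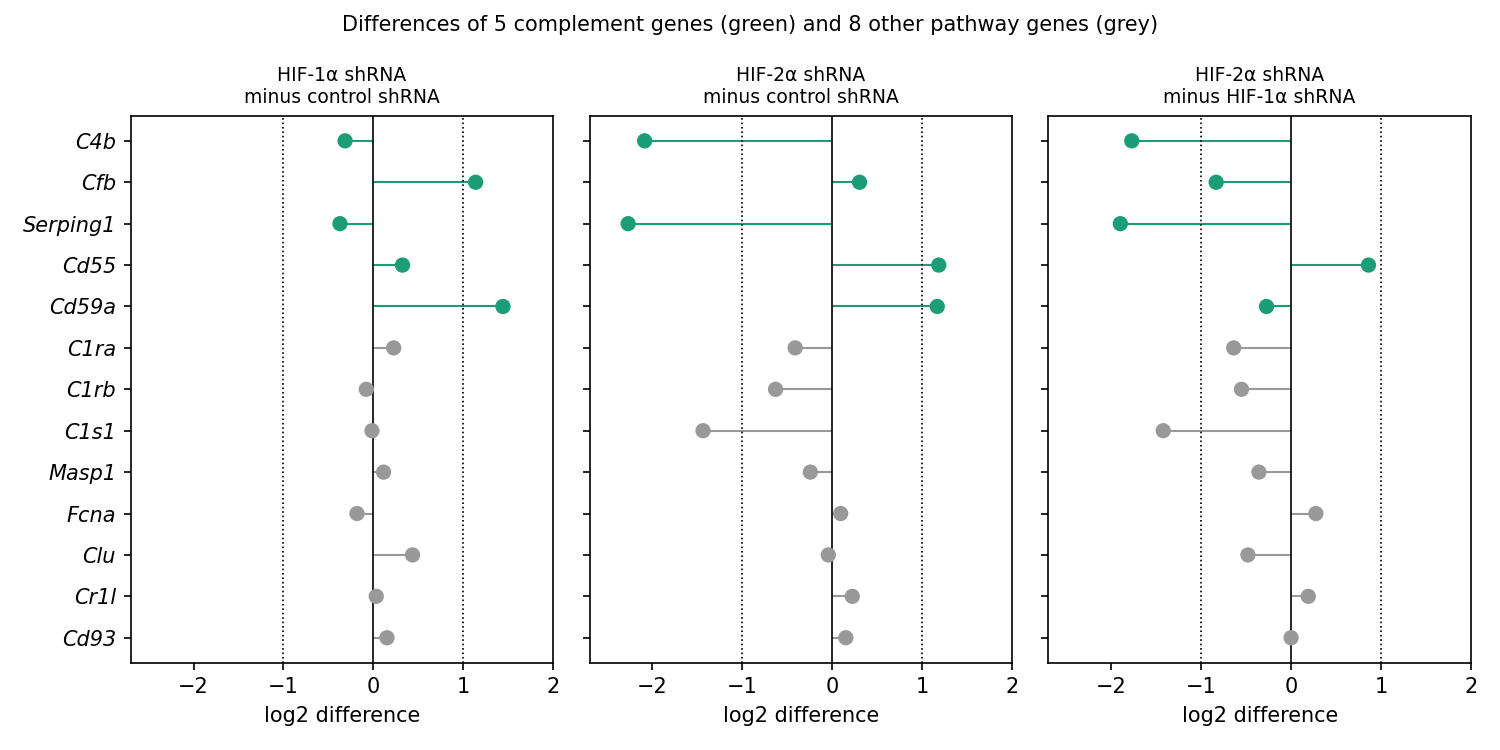
Log2 difference of the brightest probe set (horizontal axis) for 5 complement genes (green) and 8 other pathway genes (grey) in 3 comparisons, with 2-fold dotted. On the shHIF-2a-labelled array Serping1, C4b and C1s1 lie past 2-fold below control, at −2.27, −2.09 and −1.44, and Cd55 and Cd59a past it above, at 1.19 and 1.17.

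Genes with the pattern most like each bright member were sought among the 2738 genes that reached 64, by the distance between their pairs of log2 differences from control on the shHIF-1a-labelled and shHIF-2a-labelled arrays. Serping1 and C4b were each other's nearest gene, at a distance of 0.19. The next for both were Thbs4, a thrombospondin of the matrix, at 0.42 from C4b and 0.26 from Serping1, and Cxcl12, a chemokine of marrow stroma, at 0.35 from C4b and 0.50 from Serping1. Thbs4 read 44.0 on the shHIF-1a-labelled and 12.7 on the shHIF-2a-labelled array, against 66.6 on control. The nearest to Cfb were Rabgap1l at 0.33, Gypc at 0.38 and Slc9a3r1 at 0.40, all of them further off than Serping1 was from C4b. Thbs4 and C4b reached 64 on the control array alone, and Cfb, Rabgap1l and Slc9a3r1 on the shHIF-1a-labelled array alone. Which genes entered this search was therefore partly set by the minimum, and the members were chosen on these differences. With 1 array per group a likeness over 3 values is a description of these arrays.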

How the data were processed

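RNA of 3 cultures was hybridised to 1 single-colour Affymetrix array each, with 1 µg of RNA as input (per the labels' protocols), and arrays were grouped by their titles. The authors deposited RMA intensity values per probe set, RMA being named in the submitters' processing notes; the sources used here do not give its settings. The range of the deposited intensities, 0.63 to 1747, shows a linear scale, and log2 was taken here with no further scaling. Scanner files were not used here, so no other background correction could be tried.

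Genes came from the platform table: 28898 probe sets had 1 gene, 551 had several and 15588 other than 104 controls were not listed. RefSeq names (GRCm38.p6) were found through the Entrez identifier for 28689 of the single-gene probe sets. For each gene the probe set of highest mean stood for it, and the gene was counted when this probe set passed 3.47 on at least 1 array. With 1 array per group no test was run, and genes were counted at 2-fold. Genes were named by rule: the targeted genes, all members, the pathway genes above the nonspecific level, and the 3 nearest in pattern to each member reaching 64. The number of arrays limits the precision. The members and lists were chosen with earlier results of these data known. Counting was also run on simulated data with planted differences well past 2-fold and little noise. Recovery there was nearly fixed in advance, so it checks the code and does not bear on the counts above. Python 3.11.15 (pandas 2.3.3), R 4.3.3 and limma 3.58.1 (cyclic loess) were used. Alternatives were other minimums, unraised values, 32 added before log2, cyclic loess and the mean of a gene's probe sets.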

Additional observations from a re-analysis of the deposited data

How the results depend on the processing

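Of the differences of single members, C4b and Serping1 stayed at least 2-fold below control on the shHIF-2a-labelled array under the alternatives that could move them, cyclic loess (−2.23 for C4b and −2.36 for Serping1) and 32 added before log2 (−1.08 and −1.57 for the same genes). Each has 1 probe set and no value under the nonspecific level, so the other settings left their values as they were by construction. No member difference past 2-fold changed sign. The number of members 2-fold apart from control on the shHIF-1a-labelled array, 2 in the main setting, was 1 at a minimum of 16, 1 at a minimum of 64, 0 with 32 added and 1 with the mean of probe sets. On the shHIF-2a-labelled array it was 4, and 3 at a minimum of 16. It was 2 at a minimum of 64, with 32 added, with cyclic loess and with the mean of probe sets. Between the hairpins it was 2, and 1 with 32 added. The members counted were 5 in the main setting, 4 at a minimum of 16 and 3 at 64. The count of other pathway genes, 1 against control on the shHIF-2a-labelled array and 1 between the hairpins, was 0 for both at a minimum of 64 and with 32 added, since C1s1 did not reach 64 and 32 added shrinks the fold of dim genes. The count over all genes on the shHIF-1a-labelled array, 364, was 174 at a minimum of 16, 29 at 64, 17 with 32 added, 233 with cyclic loess and 204 with the mean of probe sets. On the shHIF-2a-labelled array, 723 became 385 at a minimum of 16 and 69 at 64. It was 44 with 32 added, 492 with cyclic loess and 455 with the mean of probe sets. Between the hairpins 179 became 124 at 16, 46 at 64 and 18 with 32 added. It was 167 with cyclic loess and 121 with the mean of probe sets. The split of 105 higher and 74 lower turned to 14 and 32 at 64. The genes counted were 8917 in the main setting, 6231 at a minimum of 16 and 2738 at 64. A higher minimum tests fewer genes, and adding 32 shrinks folds by construction; for cyclic loess and the mean of probe sets the cause was not tested. No paired analysis was possible because each group holds 1 array, and no array could be left out.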
